A study of Homo sapiens with 24 samples.

Results

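Peaks around 6 growth factor receptor genes were examined in RD, a single long-established human line of rhabdomyosarcoma of the fusion-negative kind. Rhabdomyosarcoma is a soft tissue tumour of children whose cells resemble muscle precursors that have not completed differentiation. The receptors were FGFR4 and FGFR1 (receptors for fibroblast growth factors), MET (the receptor for hepatocyte growth factor), PDGFRA and PDGFRB (receptors for platelet-derived growth factors) and IGF1R (the receptor for insulin-like growth factors). Each was represented by a fixed window of build hg19 around the gene: chromosome 5 at 176460001 to 176580000 for FGFR4, chromosome 8 at 38220001 to 38380000 for FGFR1, chromosome 7 at 116260001 to 116490000 for MET, chromosome 4 at 55040001 to 55220000 for PDGFRA, chromosome 5 at 149440001 to 149590000 for PDGFRB and chromosome 15 at 99140001 to 99560000 for IGF1R. A peak counted if it overlapped a window. The 6 windows held 561 of the 564552 peaks in 14 lists, of which 188 were H3K27ac, 176 MYOD, 80 SMARCA4 and 117 Ty1 peaks. The windows were set by position.

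These receptors are transmembrane tyrosine kinases that dimerise when their ligand binds and pass the signal to the RAS and PI3K pathways. In muscle, hepatocyte growth factor activates satellite cells through MET, fibroblast growth factors hold myoblasts in division, and insulin-like growth factors promote both growth and differentiation. FGFR4 is a known marker and driver of rhabdomyosarcoma, and PDGFRA and PDGFRB are typical of mesenchymal progenitors. TWIST2 and MYOD are basic helix-loop-helix transcription factors that bind the same short sequence family, the E-box.

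The study compared TWIST2 knockdown (TWIST2 KD) with control RD cells by chromatin immunoprecipitation and sequencing with antibodies to H3K27ac (acetylated histone found at enhancers and promoters in use), MYOD, the master regulator of muscle differentiation, and SMARCA4 (BRG1), an ATPase of the SWI/SNF remodelling complexes. Each of these 3 antibodies had 2 TWIST2 KD and 2 control libraries. RD cells carrying 3xTy1-TWIST2, a tagged form of the factor, gave 2 libraries made with an antibody to the Ty1 tag, and no Ty1 library of untagged cells was used here. Titles of the H3K27ac, MYOD and Ty1 libraries begin with RD-1 and those of the SMARCA4 libraries with RD-2. The labels do not say what these stand for, and whether the SMARCA4 libraries were made from the same cells as the others is not given. The labels do not give the knockdown method, the promoter behind the tagged gene, or whether replicates were separate cultures, so a p over libraries measures only the spread between these libraries. The peak lists measure no expression, so neither the depth of knockdown nor the muscle character of the cells could be checked in them. A region is a stretch of overlapping peaks of 1 antibody. It is called KD-only if both TWIST2 KD libraries and neither control had a peak there, control-only in the opposite case, and shared if all 4 had one.

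The H3K27ac lists held 48022 and 46822 peaks in TWIST2 KD and 36679 and 34932 in control cells, covering 106 ± 1.90 and 83.6 ± 2.76 Mb (SD, n = 2 each), a ratio of 1.27. MYOD lists held 52510 and 48003 peaks in TWIST2 KD and 44974 and 43381 in control cells. SMARCA4 lists held 12518 and 14676 peaks in TWIST2 KD and 11835 and 25013 in control cells, so control replicate 2 stood apart. The share of tags in peaks, approximate per the file headers, was 0.65% and 0.70% in TWIST2 KD, against 0.88% in control replicate 1 and 1.83% in control replicate 2. SMARCA4 libraries had 36095336 to 46690705 tags. For the other 3 antibodies the files give no tag numbers, so their depth is unknown. With 2 against 2 libraries the exact two-sided permutation test cannot give a p below 0.333, so no difference here can pass 0.05, and each is described by its values and by whether the groups overlap.

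Promoters of the 4 receptors whose H3K27ac coverage differed most by ratio are shown for their E-boxes, written CANNTG and searched on both strands, which read the same. The 250 bases before each start are from RefSeq, build GRCh38.p14, in lower case with E-boxes in capitals. The peaks are in hg19 and were not placed on these sequences.
FGFR4 upstream start, chr5:177086665-177086914, plus strand: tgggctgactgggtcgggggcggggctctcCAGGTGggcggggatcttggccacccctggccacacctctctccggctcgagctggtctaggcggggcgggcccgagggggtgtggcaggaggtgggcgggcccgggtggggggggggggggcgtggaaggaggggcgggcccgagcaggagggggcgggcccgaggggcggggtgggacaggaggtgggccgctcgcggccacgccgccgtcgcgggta
FGFR4 downstream start, chr5:177089300-177089549, plus strand: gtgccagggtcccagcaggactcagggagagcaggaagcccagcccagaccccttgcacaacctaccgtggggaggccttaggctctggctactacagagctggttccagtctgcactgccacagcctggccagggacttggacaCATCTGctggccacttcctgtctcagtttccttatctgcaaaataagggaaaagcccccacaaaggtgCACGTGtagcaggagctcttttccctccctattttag
PDGFRB, chr5:150155846-150156095, minus strand: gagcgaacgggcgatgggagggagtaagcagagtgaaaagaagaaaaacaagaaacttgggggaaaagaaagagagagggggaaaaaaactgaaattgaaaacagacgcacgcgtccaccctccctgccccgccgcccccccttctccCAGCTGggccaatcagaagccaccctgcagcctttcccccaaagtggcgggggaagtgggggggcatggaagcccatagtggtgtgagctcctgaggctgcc
MET, chr7:116671946-116672195, plus strand: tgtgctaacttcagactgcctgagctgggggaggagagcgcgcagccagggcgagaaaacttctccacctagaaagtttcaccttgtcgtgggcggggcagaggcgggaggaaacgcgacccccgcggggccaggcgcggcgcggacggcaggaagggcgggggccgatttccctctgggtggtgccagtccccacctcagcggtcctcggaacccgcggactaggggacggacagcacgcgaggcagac
IGF1R, chr15:98648289-98648538, plus strand: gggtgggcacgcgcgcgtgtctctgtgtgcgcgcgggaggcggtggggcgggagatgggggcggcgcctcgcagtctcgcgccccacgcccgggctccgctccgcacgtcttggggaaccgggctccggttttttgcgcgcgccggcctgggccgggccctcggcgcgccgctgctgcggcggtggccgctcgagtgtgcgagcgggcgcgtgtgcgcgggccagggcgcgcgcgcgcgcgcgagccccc

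The upstream FGFR4 start held 1 E-box, CAGGTG, which is CACCTG on the other strand, and the downstream start held 2, CATCTG and CACGTG. PDGFRB held 1, CAGCTG. The 250 bases before MET and IGF1R held none. Of the 35116 RefSeq promoters of this length in the table, 61.8% held at least 1 CANNTG. The form CACCTG was present in 17.5% of them. The PDGFRB form, CAGCTG, was present in 14%. These are common motifs, and a match is a description of the letters, not a binding site. Of the 6 receptors 5 matched the promoter table, PDGFRA with 2 starts that held 2 and 1 E-boxes.

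H3K27ac coverage of the receptor windows moved in both directions. The FGFR4 window was covered over 18.3 and 18.7 kb in TWIST2 KD cells, against 27 and 27.7 kb in control cells. Coverage of the PDGFRB window was 1.81 and 2.15 kb in TWIST2 KD and 3.94 and 3.89 kb in control cells. Both were lower after knockdown, with no overlap between the groups. The IGF1R window was covered over 68.7 and 69.9 kb in TWIST2 KD and 44.4 and 42.7 kb in control cells. For MET the values were 30.1 and 26.3 kb in TWIST2 KD and 18.0 and 16.4 kb in control cells, and for FGFR1 23 and 23.3 kb in TWIST2 KD and 20.3 and 18.1 kb in control cells. These 3 were higher after knockdown, again without overlap. No H3K27ac peak lay in the PDGFRA window in any of the 4 libraries.

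**Figure D1:**
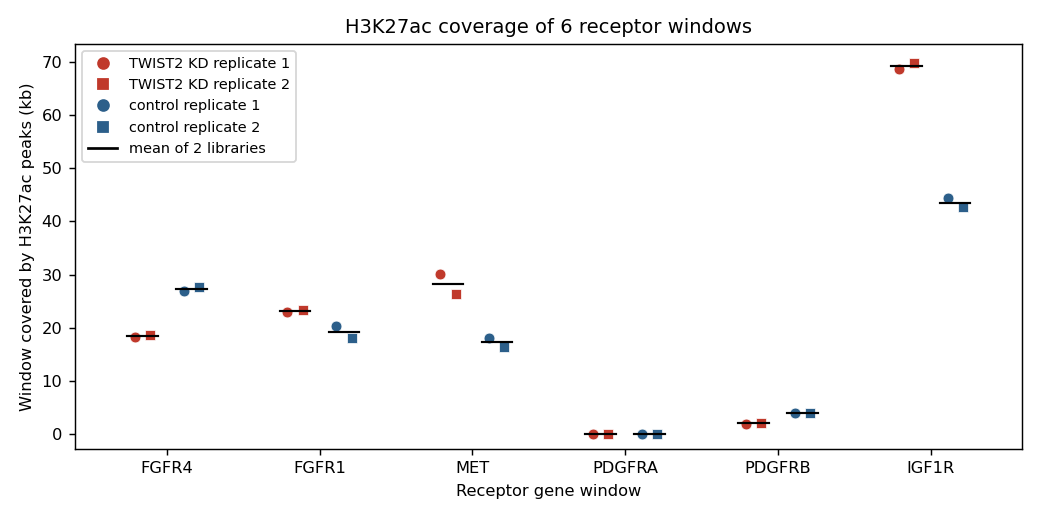
H3K27ac coverage of each receptor window in kb (y axis) by receptor (x axis); circles and squares are replicates 1 and 2 of TWIST2 KD (red) and control (blue) cells, and black lines the means of 2 libraries. FGFR4 and PDGFRB sit lower in TWIST2 KD, FGFR1, MET and IGF1R higher, and PDGFRA at 0 in all 4 libraries.

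In means, TWIST2 KD minus control was -8.84 kb at FGFR4 (18.5 ± 0.28 against 27.3 ± 0.474 kb, SD, n = 2 each), a ratio of 0.677. It was -1.94 kb at PDGFRB (1.98 ± 0.24 against 3.92 ± 0.0346 kb), a ratio of 0.505. It was 25.8 kb at IGF1R (69.3 ± 0.84 against 43.6 ± 1.21 kb, ratio 1.59), 11.0 kb at MET (28.2 ± 2.64 against 17.2 ± 1.16 kb, ratio 1.64) and 4.00 kb at FGFR1 (23.2 ± 0.177 against 19.2 ± 1.56 kb, ratio 1.21). For each of these 5 the two-sided p of the exact permutation test was 0.333, its floor. The whole lists had a ratio of 1.27 and so did the 6 windows together (141 ± 1.10 against 111 ± 3.48 kb). Relative to that general gain, FGFR4 and PDGFRB went the other way, FGFR1 was close to it, and MET and IGF1R exceeded it.

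As a share of the window covered by H3K27ac, the order of the receptors differed between the groups. In TWIST2 KD cells IGF1R came first with 16.4% and 16.6%, then FGFR4 with 15.2% and 15.6%, FGFR1 with 14.4% and 14.5%, MET with 13.1% and 11.4% and PDGFRB with 1.21% and 1.43%. In control cells FGFR4 was the most densely marked, at 22.5% and 23%, followed by FGFR1 at 12.7% and 11.3%, IGF1R at 10.6% and 10.2%, MET at 7.85% and 7.13% and PDGFRB at 2.63% and 2.60%. No neighbours in either order overlapped between their 2 libraries. In gene order, the protein-coding neighbours of each receptor in the RefSeq gene table are ZNF346 and NSD1 for FGFR4, LETM2 and TACC1 for FGFR1, CAV1 and CAPZA2 for MET, GSX2 and KIT for PDGFRA, CSF1R and CDX1 for PDGFRB, and ARRDC4 and PGPEP1L for IGF1R. Whether a window takes in part of a neighbour, and which peak belongs to which gene, was not determined.

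The FGFR4 difference lay mainly in 1 broad domain, which was in 3 pieces after knockdown and a single block in control cells. The shared region ran from 176512858 to 176535359 on chromosome 5. TWIST2 KD replicate 1 had pieces of 3001, 2988 and 9569 bp with gaps of 3443 and 958 bp, and replicate 2 had pieces of 2969, 3379 and 9440 bp with gaps of 3482 and 533 bp. Each control had 1 peak, of 22193 bp in replicate 1 and 22502 bp in replicate 2. Covered bases were thus 15558 and 15788 bp in TWIST2 KD against 22193 and 22502 bp in control cells. Ranked by width, the widest FGFR4 peak was number 526 of 48022 and 515 of 46822 in TWIST2 KD, and number 42 of 36679 and 28 of 34932 in control cells. The longer gap lay in nearly the same place in both TWIST2 KD libraries, between pieces that ended at 176516915 and began at 176520359 in replicate 1 and that ended at 176516928 and began at 176520411 in replicate 2. It held no MYOD, SMARCA4 or TWIST2 region. With gaps of up to 2000 bp between peaks closed, TWIST2 KD libraries had 1 more piece than controls in place of 2 more, and with gaps of up to 5000 bp closed 0 more.

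**Figure D2:**
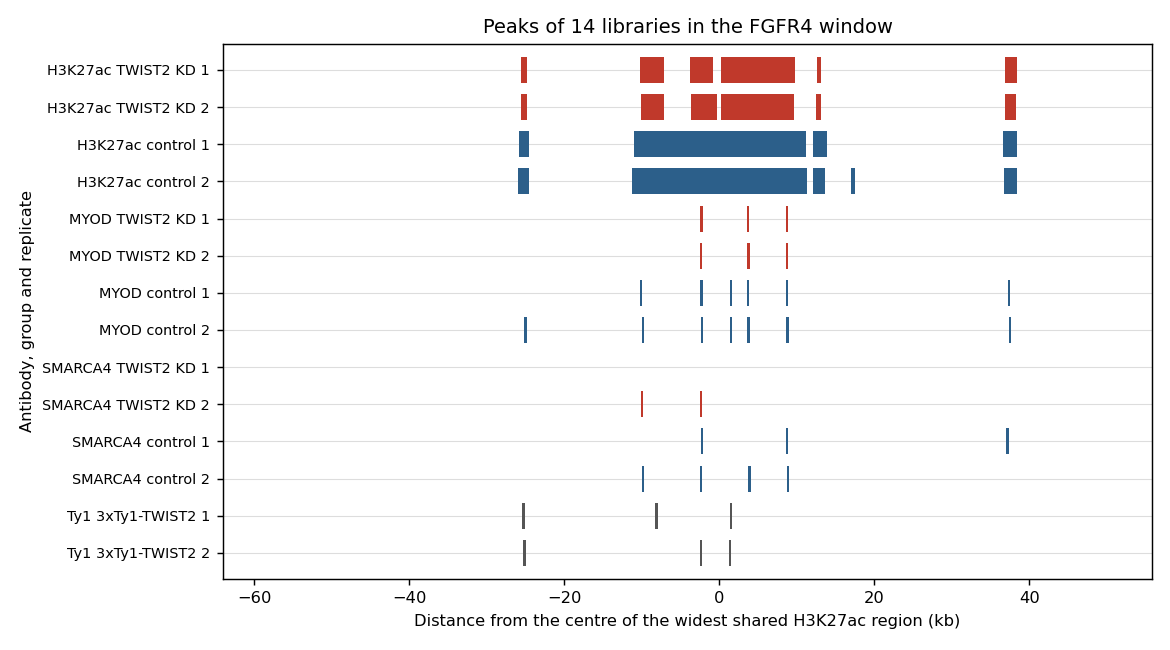
Peaks in the FGFR4 window (x axis, kb from the centre of the widest shared H3K27ac region) in 14 libraries (rows): TWIST2 KD in red, control in blue, Ty1 in grey. Peaks narrower than 0.3 kb are drawn 0.3 kb wide. The control domain of 22193 and 22502 bp is split into 3 pieces in both TWIST2 KD libraries, which also have 3 MYOD peaks each, against 6 and 7 in control cells.

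All 4 shared H3K27ac regions of the FGFR4 window covered fewer bases in both TWIST2 KD libraries than in either control. The region at 176536234 to 176537968 had 501 and 640 bp in TWIST2 KD and 1723 and 1483 bp in control cells, and the one at 176498077 to 176499591 had 768 and 754 against 1223 and 1515 bp. The last, at 176560687 to 176562532, had 1458 and 1499 bp in TWIST2 KD and 1846 and 1655 bp in control cells. The narrowest H3K27ac peaks in the TWIST2 KD lists were 501 bp wide. Over the genome 29.8% of shared H3K27ac regions, of any width, covered fewer bases in both TWIST2 KD libraries than in either control and 45.4% more. Of 28 shared regions that were 1 peak of at least 20000 bp in each control, 11 (39.3%) were split into at least 3 peaks in both TWIST2 KD libraries, FGFR4 among them. In the opposite direction, of 20 regions that were 1 such peak in both TWIST2 KD libraries, 5 were split in both controls. Of the 28, 21 covered fewer bases in both TWIST2 KD libraries than in either control and 1 covered more. Their median ratio of covered bases, TWIST2 KD over control, was 0.895. The FGFR4 domain had 0.701, and 6 of the 28, FGFR4 included, were at or below that. Each set was picked for being broad and unbroken in 1 group, which favours splits and lower coverage in the other. These counts were chosen after the FGFR4 values were seen, so nothing more is read from them about FGFR4.

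MYOD was lower at FGFR4 as well. TWIST2 KD libraries had 3 and 3 MYOD peaks in the FGFR4 window, against 6 and 7 in control libraries, a difference of -3.5 (exact two-sided permutation p = 0.333, n = 2 each) that was -1.5 in the upper 0.5 of each list. The 3 MYOD regions that were shared, at 176521625 to 176521992, 176527735 to 176527971 and 176532689 to 176533007, all lay in the broad domain. Of the 2 control-only MYOD regions, the one at 176525493 to 176525729 lay in that domain on a TWIST2 region at 176525397 to 176525747, with centres 39 bp apart. It was peak number 10773 of 44974 and 10886 of 43381 in the control lists. This spot remained covered by H3K27ac in both TWIST2 KD libraries, inside the third piece. The other, at 176561440 to 176561680, lay in a shared H3K27ac region with no TWIST2 region. TWIST2 itself was sparse in the window, with 3 Ty1 peaks in each library and 2 TWIST2 regions (peaks in both libraries), of which the one named above stood highest in the Ty1 lists, at a mean percentile of 34.5. The other overlapped a MYOD region of control replicate 2, with centres 175 bp apart. Over the 6 windows, centres of 24 such pairs of a MYOD and a TWIST2 region lay 2 to 293 bp apart. Their median was 49.8 bp, and 12 were within 50 bp.

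SMARCA4 had 0 and 2 peaks in the FGFR4 window in TWIST2 KD and 3 and 4 in control cells, a difference of -2.5 that was -1.5 without TWIST2 KD replicate 1. The region at 176521669 to 176521920, on a shared MYOD region, had a peak of 3.90 normalized tags (the authors' tag count, scaled for library size) in TWIST2 KD replicate 2 and peaks of 7.07 and 8.70 in control cells. A control-only SMARCA4 region at 176532770 to 176533035, also on a shared MYOD region, had 4.50 and 7.81. At FGFR4, H3K27ac, MYOD and SMARCA4 thus each had lower values in both TWIST2 KD libraries than in either control. How often other windows of the genome do so was not counted. The whole lists had mean ratios of 1.27 for H3K27ac, 1.14 for MYOD and 0.738 for SMARCA4, whose groups overlapped. The SMARCA4 libraries of TWIST2 KD cells also had lower shares of tags in peaks than either control, as given above. A library without a peak may still have tags below the caller's threshold. SMARCA4 peaks had 1 width per list, 141 and 145 bp in TWIST2 KD and 195 and 159 bp in control cells. The tag values given here and below were not adjusted for this.

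At IGF1R, H3K27ac and MYOD were both higher after knockdown. The window held 29 and 29 H3K27ac peaks in TWIST2 KD and 21 and 21 in control cells. Of 18 shared regions, 13 covered more bases in both TWIST2 KD libraries than in either control, against 45.4% of shared regions over the genome, 2 covered fewer, against 29.8%, and 3 overlapped. Over the 6 windows together 20 of 35 shared regions covered more and 8 fewer. The region at 99438593 to 99444925 on chromosome 15 stood out, with 6066 and 5687 bp in TWIST2 KD against 899 and 651 bp in control cells. It contained the TWIST2 region highest in the Ty1 lists of this window, 99440124 to 99440445 (mean percentile 87.6), which overlapped a MYOD region found in both TWIST2 KD libraries and 1 control. It also contained a KD-only MYOD region at 99443702 to 99443926. The widest shared region, 99394245 to 99402535, was 1 peak of 8143 and of 8291 bp in TWIST2 KD and 2 peaks in each control, of 2697 and 1707 bp and of 2639 and 1675 bp. By contrast the region at 99260813 to 99263949 had 1934 and 2033 bp in TWIST2 KD and 3137 and 2957 bp in control cells.

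Of 32 H3K27ac regions in the IGF1R window 5 were KD-only, a share of 15.6% that is below the 19.8% over the genome. That at 99350355 to 99351455 (501 and 1101 bp) held both a KD-only MYOD region and a TWIST2 region. That at 99319543 to 99321004 (1405 and 802 bp) held a TWIST2 region and a MYOD region shared by all 4 libraries, so MYOD peaks were there in control cells too. The other KD-only regions, at 99322317 to 99322947, 99381217 to 99382837 and 99496885 to 99498571, held no TWIST2 region. The single control-only region, 99358820 to 99359964, had 1097 and 904 bp in control cells and held a TWIST2 region.

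**Figure D3:**
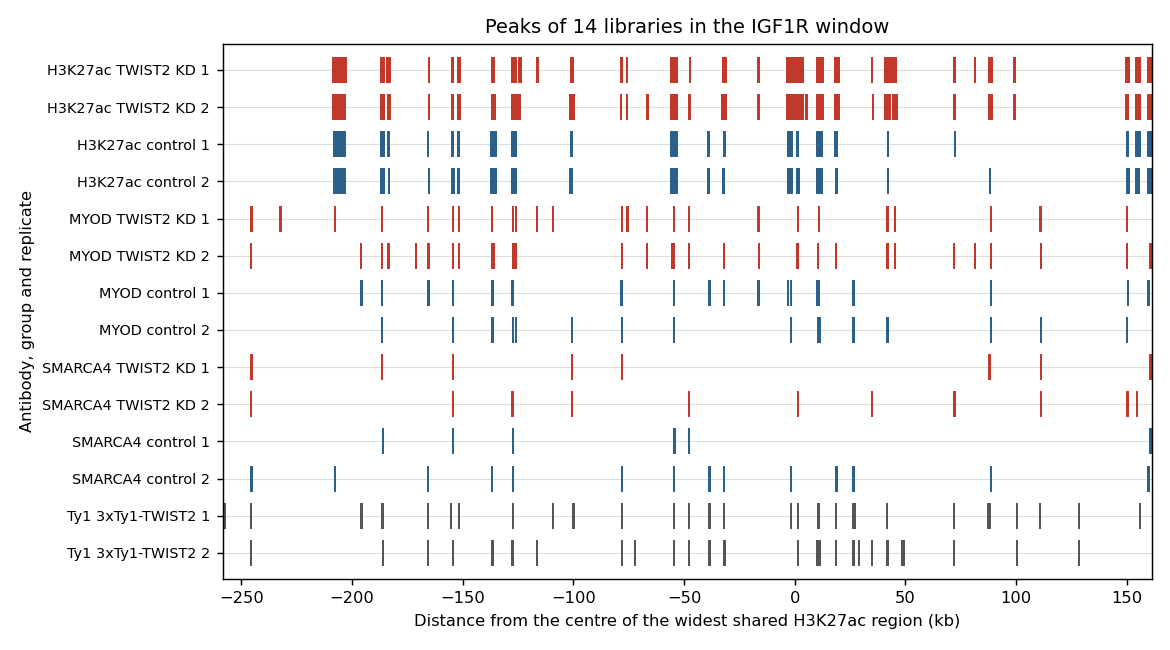
Peaks in the IGF1R window (x axis, kb from the centre of the widest shared H3K27ac region) in 14 libraries (rows), coloured as TWIST2 KD (red), control (blue) and Ty1 (grey). Peaks narrower than about 1 kb are drawn about 1 kb wide. TWIST2 KD libraries have 29 H3K27ac peaks each against 21 in each control.

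MYOD peaks in the IGF1R window numbered 25 and 30 in TWIST2 KD and 19 and 16 in control cells, a difference of 10 (27.5 ± 3.54 against 17.5 ± 2.12, exact two-sided permutation p = 0.333, n = 2 each). It was 4.5 when every list was cut to the same number of peaks. Of 44 MYOD regions there 7 were shared (15.9%, against 20.3% over the genome), 5 KD-only (11.4%, against 9.1%) and 2 control-only (4.55%, against 5.41%). These shares lay near the background, and the other 30 regions followed none of these patterns. Besides the regions above, KD-only MYOD regions lay at 99152832 to 99153138, on a TWIST2 region outside H3K27ac, at 99246535 to 99246824, where H3K27ac was shared, and at 99331432 to 99331742, within an H3K27ac region of 1 TWIST2 KD library. The control-only MYOD regions were 99396553 to 99396747, within the widest shared H3K27ac region, and 99424879 to 99425085, on a TWIST2 region outside H3K27ac. This window, at 420 kb the longest of the 6, held 31 and 27 Ty1 peaks and 19 TWIST2 regions. Of these regions 16 overlapped a MYOD region of any class and 14 an H3K27ac region, against 48.1% and 50.3% of TWIST2 regions over the genome. SMARCA4 had 9 and 11 peaks in TWIST2 KD and 6 and 14 in control cells, with equal means of 10. The difference was 2.5, with no overlap between the groups, when every list was cut to the same number of peaks, and its sign depended on which control library was used (4 without control replicate 2, -4 without control replicate 1).

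MET had the MYOD sites that stood highest in the MYOD lists among the receptors. The files do not say what sets the order of these lists. The MYOD region at 116374291 to 116374526 on chromosome 7 was number 14 of 52510 and 12 of 48003 in the TWIST2 KD lists and number 17 of 44974 and 15 of 43381 in the control lists. The region at 116422245 to 116422483 was number 30 and 25 in TWIST2 KD and number 55 and 61 in control cells. The first lay with its centre 5.5 bp from that of a TWIST2 region, in the widest shared H3K27ac region of the window (116372115 to 116377728), which had 5503 and 5284 bp in TWIST2 KD and 4421 and 4370 bp in control cells. SMARCA4 peaks lay there in both TWIST2 KD libraries (8.03 and 8.28 normalized tags) and in control replicate 1 (11.8). The second had SMARCA4 peaks in TWIST2 KD replicate 1 (11.4) and in both controls (13.9 and 15.2).

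H3K27ac in the MET window had 12 and 11 peaks in TWIST2 KD and 9 and 7 in control cells. Of 7 shared regions 4 covered more bases in both TWIST2 KD libraries than in either control, a share near the 45.4% over the genome on so few regions, 0 covered fewer and 3 overlapped. The region at 116415507 to 116419051 had 3316 and 3545 bp in TWIST2 KD and 1780 and 501 bp in control cells. The region at 116441208 to 116446417, with a TWIST2 region, had 5089 and 5051 against 3676 and 3622 bp. Of the 13 H3K27ac regions 4 were KD-only (30.8%, against 19.8% over the genome), at 116297223 to 116298627, 116300883 to 116302905, 116327689 to 116328869 and 116409008 to 116410702. The last held the single KD-only MYOD region of the window, 116409535 to 116409848, whereas the first held a control-only MYOD region, 116298086 to 116298294. None of the 4 overlapped a TWIST2 region. Over the 6 windows 2 of 9 KD-only H3K27ac regions did (22.2%), against 31.5% over the genome, so on so few regions nothing is read from this.

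MYOD peak numbers at MET were close, 8 and 8 in TWIST2 KD and 7 and 7 in control cells. The other control-only MYOD region lay at 116442921 to 116443138. TWIST2 had 11 and 11 Ty1 peaks and 6 TWIST2 regions, the highest of which, 116355187 to 116355425 (mean percentile 96.7), held no peak of the other 3 antibodies, as did 2 further ones within 2 kb. SMARCA4 had 3 and 2 peaks in TWIST2 KD and 3 and 6 in control cells, a difference of -2 that was -0.5 without control replicate 2 and -3.5 without control replicate 1. Its control-only region, 116312121 to 116312420, had 17.3 and 15.6 normalized tags and lay on a TWIST2 region and a shared MYOD region.

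FGFR1 had the ratio of H3K27ac coverage nearest to 1 of the 5 marked receptors. Of 4 shared H3K27ac regions 3 covered more bases in both TWIST2 KD libraries than in either control and 1 overlapped. Over the genome 45.4% of shared regions covered more, and 4 regions are too few to tell apart from that share. The widest, 38236874 to 38245183 on chromosome 8, had 8310 and 8024 bp in TWIST2 KD and 7463 and 7669 bp in control cells. A KD-only MYOD region at 38322832 to 38323127 lay in the shared H3K27ac region at 38321120 to 38326516, with its centre 19.5 bp from that of a TWIST2 region, 38322824 to 38323096. It was number 1774 of 52510 and 1070 of 48003 in the TWIST2 KD lists, and that TWIST2 region was number 726 of 74087 and 800 of 71100 in the Ty1 lists. The TWIST2 region of the window highest in those lists, 38266301 to 38266565 (number 233 and 354), held no peak of the other antibodies. The shared MYOD region highest in the lists, 38287988 to 38288251, was number 281 and 287 in TWIST2 KD and 438 and 1637 in control cells.

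MYOD had 7 and 5 peaks in the FGFR1 window in TWIST2 KD and 5 and 3 in control cells, which overlapped (difference 2, exact two-sided permutation p = 0.667, n = 2 each). The difference was 1 without TWIST2 KD replicate 1 or without control replicate 2. Ty1 libraries had 6 and 10 peaks and 6 TWIST2 regions. SMARCA4 had 3 and 3 peaks in TWIST2 KD and 1 and 4 in control cells, in 10 regions, and no region of this window was KD-only, control-only or shared for it. The difference of 0.5 was -1 without control replicate 1 and 2 without control replicate 2.

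The platelet-derived growth factor receptors were the least marked. In the PDGFRA window, without H3K27ac, MYOD had 3 and 3 peaks in TWIST2 KD and 1 and 2 in control cells, a difference of 1.5 that was 0 when every list was cut to the same number of peaks. The KD-only MYOD region lay on chromosome 4 at 55064170 to 55064425 and the shared one at 55083811 to 55084247, at mean list percentiles of 17.6 and 18.9, so low in the lists. The shared region overlapped the single TWIST2 region of the window, 55083855 to 55084101. SMARCA4 had 1 peak, in control replicate 2. In windows widened by 50 kb on each side, the H3K27ac difference became 1.91 kb.

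PDGFRB had 2 H3K27ac peaks in each library, both narrower after knockdown, and in windows widened by 50 kb on each side the difference was -5.06 kb. The widest shared region, on chromosome 5 at 149521746 to 149524629, had 1309 and 1446 bp in TWIST2 KD and 2359 and 2347 bp in control cells. The region at 149534553 to 149536152 had 501 and 703 bp in TWIST2 KD and 1584 and 1547 bp in control cells. Its TWIST2 KD peaks were close to the narrowest of those lists (501 bp). They stood at list percentiles of 5.15 and 6.84, against 33.2 and 28.1 in control cells. MYOD had 1 and 1 peaks in TWIST2 KD and 3 and 3 in control cells, but the 6 regions they formed were neither shared nor KD-only nor control-only, and the difference of -2 became 0.5 in the upper 0.5 of each list. Its 2 TWIST2 regions, the higher at 149532679 to 149532920 (mean percentile 76.2), held no peak of the other antibodies. SMARCA4 had 1 and 0 peaks in TWIST2 KD and 1 and 3 in control cells, with a control-only region at 149543162 to 149543373 (4.93 and 3.79 normalized tags).

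**Figure D4:**
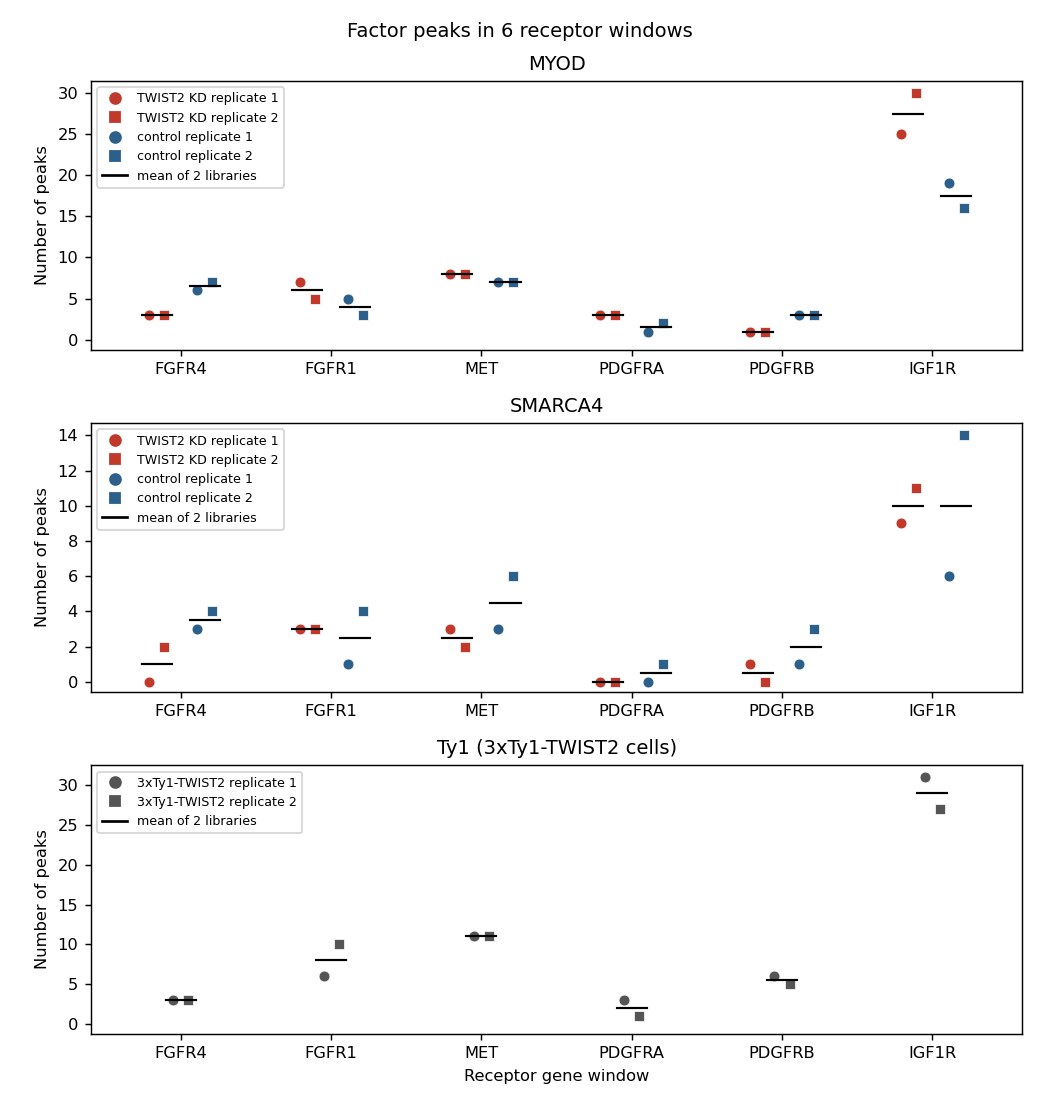
Number of MYOD, SMARCA4 and Ty1 peaks (y axes) in each receptor window (x axis); circles and squares are replicates 1 and 2 of TWIST2 KD (red), control (blue) and 3xTy1-TWIST2 (grey) cells, and black lines the means of 2 libraries. MYOD is lower in TWIST2 KD at FGFR4 (3 and 3 against 6 and 7) and PDGFRB and higher at IGF1R (25 and 30 against 19 and 16), and SMARCA4 control replicate 2 is the highest SMARCA4 library in each window.

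Over the 6 windows together, KD-only and control-only regions were about as frequent as over the genome. Of 58 H3K27ac regions 9 (15.5%) were KD-only, against 19.8% of all H3K27ac regions, and 1 (1.72%) was control-only, against 4.21%. Shared ones were 35 (60.3%), against 49.1%. Of 82 MYOD regions 8 (9.76%) were KD-only against 9.1% over the genome, 6 (7.32%) control-only against 5.41%, and 18 (22.0%) shared against 20.3%, which left 50 with another pattern, against 65.2%. Of 57 SMARCA4 regions 2 (3.51%) were KD-only against 1.91%, 4 (7.02%) control-only against 6.68%, 0 shared against 1.11%, and 51 with another pattern against 90.3%. The KD-only and control-only shares thus lay near the background, and the 9 KD-only H3K27ac regions were found at MET (4) and IGF1R (5). When the H3K27ac lists were cut to equal length, keeping the widest peaks, 4 regions were KD-only and 4 control-only. With 1 library of a group left out, the class of that group takes in regions found once: KD-only H3K27ac regions then numbered 14 without either TWIST2 KD replicate, KD-only MYOD regions 19 and 20, KD-only SMARCA4 regions 10 and 10, control-only H3K27ac regions 2 without either control replicate, control-only MYOD regions 11 and 15 without control replicates 1 and 2, and control-only SMARCA4 regions 26 without control replicate 1. KD-only MYOD regions numbered 14 without control replicate 2, and KD-only SMARCA4 regions 4 without control replicate 1.

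**Figure D5:**
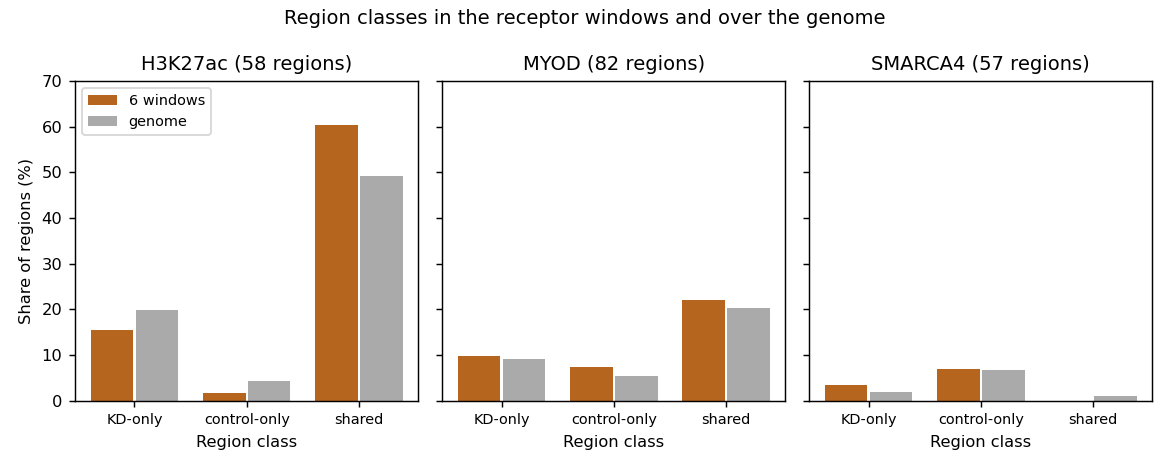
Share of merged regions (y axis, %) that were KD-only, control-only or shared (x axis) in the 6 receptor windows (brown) and over the genome (grey), for H3K27ac (58 regions in the windows), MYOD (82) and SMARCA4 (57). The brown and grey bars are close for KD-only and control-only regions, such as 9.76% against 9.1% for KD-only MYOD.

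SMARCA4 regions with peaks in at least 3 libraries lay on MYOD regions, at FGFR4 and MET as given above and at 3 places in the IGF1R window. Such overlap is common, since over the genome 67.6% of SMARCA4 regions, and 92.1% of those shared by all 4 libraries, overlapped a MYOD region. At 99152815 to 99153095 the peaks had 4.43 and 3.65 normalized tags in TWIST2 KD and 4.46 in control replicate 2. At 99243816 to 99244019 they had 4.16 and 4.87 in TWIST2 KD and 9.85 in control replicate 1, and at 99270853 to 99271179 they had 4.87 in TWIST2 KD replicate 2 and 10.1 and 11.4 in control cells. The KD-only SMARCA4 regions, 99297665 to 99297830 (5.26 and 4.87) and 99509521 to 99509720 (4.16 and 3.65), and the control-only region 99343939 to 99344162 (9.0 and 8.70) were also at IGF1R.

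Tagged TWIST2 had 36 regions with peaks in both Ty1 libraries among 81 Ty1 regions in the windows, against 50.3% over the genome. With 1 Ty1 library alone there were 57 (without replicate 1) and 60 (without replicate 2). Of the 36, 23 (63.9%) overlapped an H3K27ac region of any class, against 50.3% of TWIST2 regions over the genome, and 24 (66.7%) a MYOD region, against 48.1%. SMARCA4 regions were at 17 (47.2%), against 27.1%, and 10 held none of these. The IGF1R window alone held 19 of the 36, and gave 14 of the H3K27ac, 16 of the MYOD and 12 of the SMARCA4 overlaps. At FGFR1 4, 3 and 2 of 6 overlapped H3K27ac, MYOD and SMARCA4 regions, at MET 3, 2 and 3 of 6. At PDGFRB neither region did. The pooled shares therefore describe mainly IGF1R and are not a trait of all 6 windows. By class, 3 of 8 KD-only (37.5%), 2 of 6 control-only (33.3%) and 9 of 18 shared MYOD regions overlapped a TWIST2 region, against 25.0%, 21.0% and 46.6% over the genome. TWIST2 thus lay at receptor sites where MYOD was found in both groups, in TWIST2 KD cells alone or in control cells alone. Tagged TWIST2 was measured in other cells than the control and TWIST2 KD libraries.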

How the data were processed

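ChIP-seq peak lists of 14 RD libraries were used, and the 10 input libraries of the 24 samples were not analysed here. Per the submitters' processing notes, the tools included HOMER 4.4, bedtools 2.29.2, Bowtie2 2.3.4.3 and SAMtools 0.1.19, and the builds hg19 and GRCh37. The deposited lists for Ty1, MYOD and H3K27ac hold 1 library each, with peak coordinates and without scores. Per the file headers, SMARCA4 peaks were called by HOMER in factor style against input, with 0.001 as the false discovery rate and 4-fold more tags than the input and the surrounding 10000 bp. The deposited SMARCA4 columns give a normalized tag signal, a peak score, a fold ratio over input and a p-value. The signal was used to describe peaks and the score to rank them, and the ratio and p-value are not reported.

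For each antibody, peaks with at least 1 bp in common were joined into regions over the whole lists of its libraries, with Python 3.11.15, numpy 2.4.6 and pandas 2.3.3, and plotted with matplotlib 3.10.9. The classing was tested on simulated data. Coverage was clipped to the windows. MYOD, SMARCA4 and Ty1 peaks have 1 width per list, so their number was compared, and for H3K27ac the covered bases. Groups came from the labels. The 18 comparisons of a window used the exact two-sided permutation test. All 6 receptors were named, with the widest shared H3K27ac region and the highest TWIST2 region of each window, each KD-only or control-only region (for MYOD at most 6 a window, highest in the lists, the seventh at IGF1R being named by its H3K27ac region), and SMARCA4 regions in at least 3 libraries. Other shared regions named with values were chosen after these were seen. The windows, lists and rules were chosen with earlier results of these data known. No hg19 genome or annotation was used, so peaks were not assigned to promoters, exons or introns, and a planned list of ligands, other receptors and adaptors was not analysed. All 6 receptors matched the RefSeq gene table (GRCh38.p14), used for names.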

Additional observations from a re-analysis of the deposited data

How the results depend on the processing

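The direction of the H3K27ac difference at FGFR4, PDGFRB, FGFR1, MET and IGF1R was kept under each alternative run. At FGFR4 it was -10.2 kb with lists cut to equal length, -7.60 kb in the upper 0.5 of each list and -9.17 to -8.50 kb with 1 library left out. Both cuts kept the widest H3K27ac peaks. They select on the property that covered bases measure, so they are no independent check of it. The sign turned for 2 other differences in the upper 0.5 of each list: MYOD peaks at PDGFRB (0.5) and SMARCA4 peaks at FGFR1 (-0.5, against 0.5, and -1 to 2 with 1 library left out). The cause was not tested. The FGFR4 domain had 2 more pieces in TWIST2 KD than in control libraries as deposited, 1 more with gaps up to 2000 bp closed and 0 more with gaps up to 5000 bp closed, an alternative chosen after seeing the data.

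Counts of regions are small and depend on how a class is defined. With lists cut to equal length, KD-only and control-only H3K27ac regions were 4 and 4, against 9 and 1. When 1 library of a group sufficed, KD-only and control-only regions were 17 and 3 for H3K27ac, 29 and 20 for MYOD, and 18 and 28 for SMARCA4. In the upper 0.5 of each list there were 18 shared H3K27ac, 3 KD-only and 10 shared MYOD, 1 KD-only SMARCA4 and 20 TWIST2 regions. Windows widened by 50 kb gave 2 control-only H3K27ac, 1 shared SMARCA4 and 58 TWIST2 regions. A peak in either Ty1 library gave 81 TWIST2 regions. With 1 library left out, H3K27ac regions numbered 10 to 14 KD-only and 1 to 2 control-only, MYOD regions 11 to 20 KD-only and 7 to 15 control-only, SMARCA4 regions 3 to 10 KD-only, 5 to 26 control-only and 1 to 2 shared, and TWIST2 regions 57 to 60, in part because 1 library then defines its group.

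With the replicate number as a block, the differences are the same values (-8.84 kb of H3K27ac at FGFR4) and the exact p cannot go below 0.5. Same-numbered libraries did not deviate together (correlations 0.00478 for H3K27ac, -0.000117 for MYOD and -0.0312 for SMARCA4 over merged regions), so the numbers were not taken as pairs. None of these settings separates knockdown from a technical property shared by a group's pair of libraries.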
